A study of Mus musculus and Homo sapiens with 23 samples.

Results

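The constitutive proteasome genes were taken as every gene in the BV2 expression tables whose mouse symbol begins with Psma, Psmb, Psmc or Psmd and a number, without the inducible Psmb8, Psmb9 and Psmb10 and without pseudogenes. This gave 37 of the 21599 genes measured. Of these, 35 reached 1 FPKM (fragments normalised to transcript length and library size) without or with LPS and are counted below, as 10036 genes of the whole table were. The 37 comprise 7 alpha and 7 beta subunits of the 20S core, 6 ATPases, 3 other subunits of the 19S base, 8 subunits of the 19S lid, 3 assembly chaperones that carry Psmd symbols, the tissue-restricted Psma8 and Psmb11, and Psmc3ip, whose symbol matches although its product is a recombination factor.

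The series profiled the histone mark H2BK20ac and other marks in several cell types, and its RNA part compares BV2 cells left unstimulated with BV2 cells given lipopolysaccharide (LPS, a component of the Gram-negative outer membrane) for 3 h, by 1 library each. BV2 is an immortalised mouse microglial line. No genetic change is named for either RNA library, and the labels give no dose of LPS. With 1 library per condition there was no test across replicates and no p-value. The range in brackets after a level is the 95% interval that came with it in the deposited table, which covers counting and the assignment of fragments but not the spread between cultures.

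The proteasome degrades proteins tagged with ubiquitin. Its 20S core is a barrel of stacked rings, in which the alpha rings form the gate and the beta rings hold the proteolytic sites. The 19S regulatory particle caps the barrel: its base holds a ring of ATPases that unfold substrates and feed them into the core, and its lid removes the ubiquitin chains. In myeloid cells exposed to inflammatory signals, inducible beta subunits can take the place of the constitutive catalytic ones, which alters the peptides made for MHC class I.

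Fragments inferred from the deposited intervals summed to about 13800000 without LPS and 16900000 with it. Each of the 31 structural subunits rested on 1029 to 39541 such fragments per library. Of 9 myeloid markers, 8 had a row under the symbol used, and all 8 were counted, with summed FPKM of 10133 and 8533. None of 24 markers of neurons, astrocytes, oligodendrocytes, endothelium with fibroblasts, or lymphocytes reached an FPKM of 1, and the 5 lymphocyte markers were listed at 0 in both libraries. Tnf, a cytokine gene that LPS is known to induce, was at 11.5 (10.3 to 12.7) without and 735 (725 to 744) with LPS.

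On the deposited FPKM, every structural subunit of the constitutive proteasome stayed within a 2-fold band after LPS. Changes are given as the difference in log2(FPKM + 1), with LPS minus without, a scale that understates changes of low genes, and a gene was called higher or lower at a change of 1 or more in size. Of the 31 structural subunits, 0 were called higher and 0 lower. The count was 2 higher after median scaling (Psmb6 at 1.06 and Psmd8 at 1.01) and 1 lower after rescaling to a fixed total, TPM (Psmc6 at -1.004). Among the 35 counted members 2 were called higher, the assembly chaperones Psmd5 and Psmd10, and 1 was called lower, Psmc3ip. Over all counted genes 8.54% were called higher and 12.4% lower. Among the 2624 genes that reached 30 FPKM without or with LPS, a floor that all 31 structural subunits pass and that was chosen after their values were seen, the shares were 14.5% and 6.29%.

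Within that band most subunits were somewhat higher in the LPS library. The median change of the 31 was 0.21, with a range of -0.76 to 0.98, against a median of -0.24 for all counted genes and 0.04 for the genes at the floor of 30. The deposited intervals of 20 subunits (64.5%) were separate with LPS above, those of 4 (12.9%) were separate with LPS below, and those of 7 overlapped. Separate intervals were common in these data: LPS lay above in 25.1% and below in 48.4% of all counted genes, and in 44.0% and 38.2% of genes at the floor of 30. TPM moved the median of the 31 to -0.04 and quantile normalisation moved it to 0.03, so the sign of so small a shift depends on the scaling. The same holds for single members with changes of at most 0.25 in size: 14 took the other sign after TPM, median scaling or quantile normalisation, namely Psma3, Psma7, Psmb1, Psmb2, Psmb3, Psmb4, Psmb5, Psmc1, Psmc3, Psmd2, Psmd9, Psmd12, Psmd13 and Psmd14. Because the cells were measured in bulk, a shared small change in all cells and a larger change in some of them cannot be told apart.

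**Figure D1:**
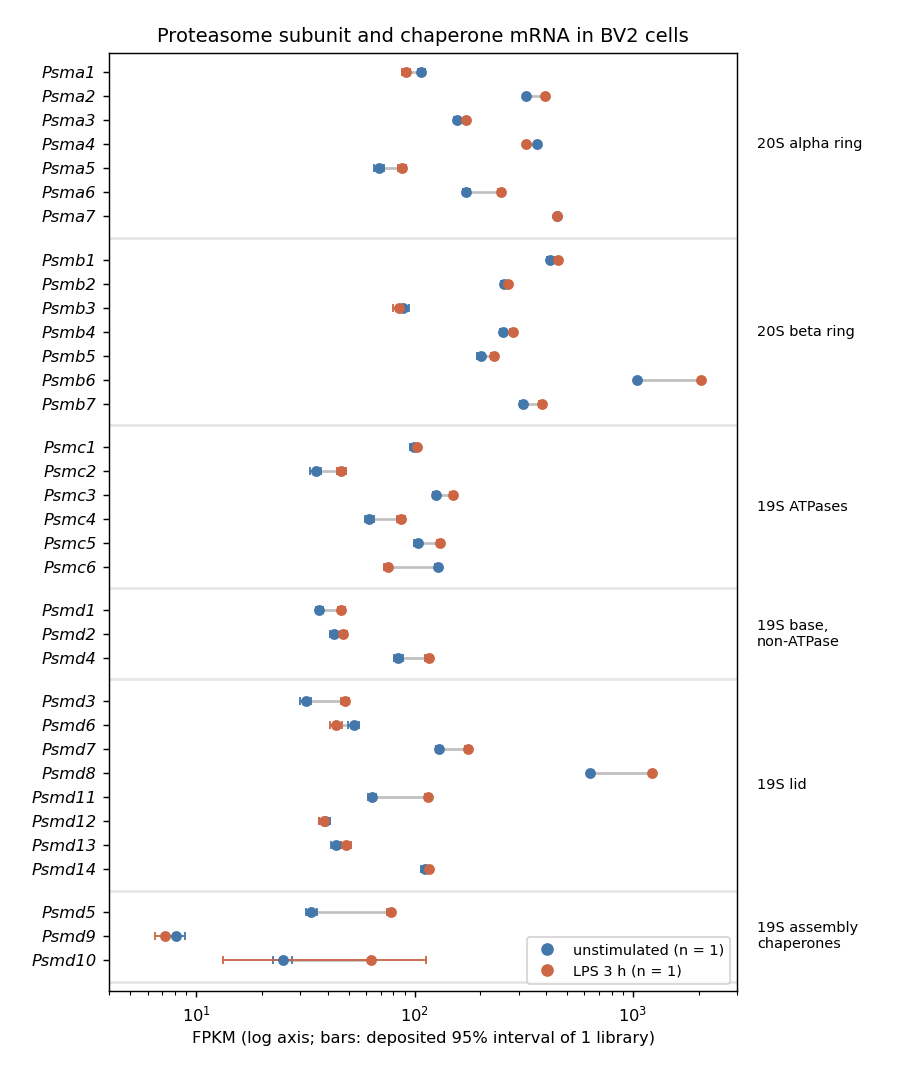
FPKM (horizontal log axis) of 34 proteasome genes in the unstimulated library (blue) and the library after 3 h of LPS (orange), 1 library each, grouped by part of the proteasome; bars are the deposited 95% intervals, combined over 2 transcripts for Psmd2 and Psmd10. Psmb6 and Psmd8 lie far above the other members of their groups in both libraries, and Psmc6 and Psmd5 move in opposite directions.

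The alpha ring, which carries the gate of the core and binds the regulatory particles, was nearly balanced between small gains and small losses. Its 7 subunits had a median change of 0.14 (range -0.23 to 0.52), and their summed FPKM went from 1647 to 1773. Psma6 had the largest change, with an FPKM of 173 (167 to 179) without and 249 (241 to 256) with LPS, a ratio of 1.44 (1.37 to 1.51). Psma2 was at 325 and 395 FPKM, Psma5 at 68.8 and 87.9, and Psma3 at 157 and 173. For these 4 the LPS interval was the higher one.

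The other 3 alpha subunits did not follow. Psma1 was at 108 (103 to 112) and 91.5 (87.7 to 95.4), and Psma4 at 364 (355 to 373) and 326 (318 to 334), both with the LPS interval below. Psma7, the most abundant alpha subunit, was at 451 (440 to 462) and 451 (440 to 462), with overlapping intervals. The lowest and the highest alpha subunit differed 6.56-fold in FPKM without and 5.13-fold with LPS, although the assembled ring holds each subunit in equal number.

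The beta ring carries the catalytic threonines, on the subunits encoded by Psmb5, Psmb6 and Psmb7. The median change of the 7 constitutive members was 0.15 (range -0.06 to 0.98), close to that of the alpha ring, but Psmb6 stood apart. Psmb6, the caspase-like subunit (mm9 chromosome 11, 70338859 to 70341360), was at 1045 (1030 to 1060) without and 2059 (2038 to 2080) with LPS. The ratio was 1.97 (1.94 to 2.01) and the change 0.98, just short of the size rule. The change was 1.06 after median scaling, past the rule, but 0.73 after TPM and 0.69 after quantile normalisation. Psmb6 was the 86th and the 54th most abundant of all genes in these libraries, and its FPKM was 4.06 times the median of the ring without and 7.29 times with LPS.

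The remaining beta subunits lay in a narrow range of change, from -0.06 to 0.29. Psmb7, the trypsin-like subunit, was at 313 (305 to 322) and 383 (373 to 392), and Psmb5, the chymotrypsin-like subunit and the main target of proteasome inhibitor drugs, at 201 (193 to 208) and 232 (224 to 240). The structural subunits of the ring were at 415 and 452 for Psmb1, 257 and 268 for Psmb2, 88.9 and 85.1 for Psmb3, and 255 and 283 for Psmb4. The intervals of Psmb2 and Psmb3 overlapped, and those of the other 5 beta subunits were separate with LPS above. Without Psmb6 the summed FPKM of the ring was 1530 and 1702, a ratio of 1.11, whereas with it the ratio was 1.46. The RefSeq gene table lists 2 pseudogenes each for Psmb6 and Psmb7 and 1 each for Psmb5 and Psma5. No label says how fragments that match several loci were assigned, so the values of these 4 genes carry that uncertainty. Only pseudogenes named after their gene were searched for, so other members may have copies that were not listed.

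The 250 bases before the annotated start of Psmb6 (RefSeq, GRCm38.p6, chr11:70525107-70525356, plus strand) are shown because this gene had the largest change of any structural subunit. Capitals mark a match to TGANNNNGC, the core of the antioxidant response element that the factors NRF1 and NRF2 bind with small Maf proteins. The match begins 9 bases before the start.
Psmb6: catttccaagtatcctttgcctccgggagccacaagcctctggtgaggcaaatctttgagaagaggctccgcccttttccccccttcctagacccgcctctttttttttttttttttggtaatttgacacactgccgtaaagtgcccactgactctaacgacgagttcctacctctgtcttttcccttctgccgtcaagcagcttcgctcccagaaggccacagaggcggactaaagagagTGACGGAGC

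Each constitutive catalytic subunit has an inducible counterpart, and the ratio of constitutive to inducible FPKM differed widely between the pairs. Psmb5 was 2.44 times (2.30 to 2.59) as high as Psmb8 in FPKM without LPS and 1.09 times (1.04 to 1.14) with LPS. Psmb7 was 5.56 times (5.23 to 5.91) as high as Psmb10 without LPS and 0.804 times (0.780 to 0.829) with it, so that the order of this pair was inverted. Psmb6 stayed 43.7 times (39.0 to 49.0) and 19.8 times (18.8 to 20.9) as high as Psmb9. In all 3 pairs the constitutive member was itself at a higher deposited FPKM in the LPS library (for Psmb5 not after TPM or quantile normalisation), and the ratios within a library do not depend on its linear scaling. The inducible genes are outside the rule and were all called higher: Psmb8 went from 82.3 to 213 FPKM, Psmb9 from 23.9 to 104 and Psmb10 from 56.3 to 476.

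**Figure D2:**
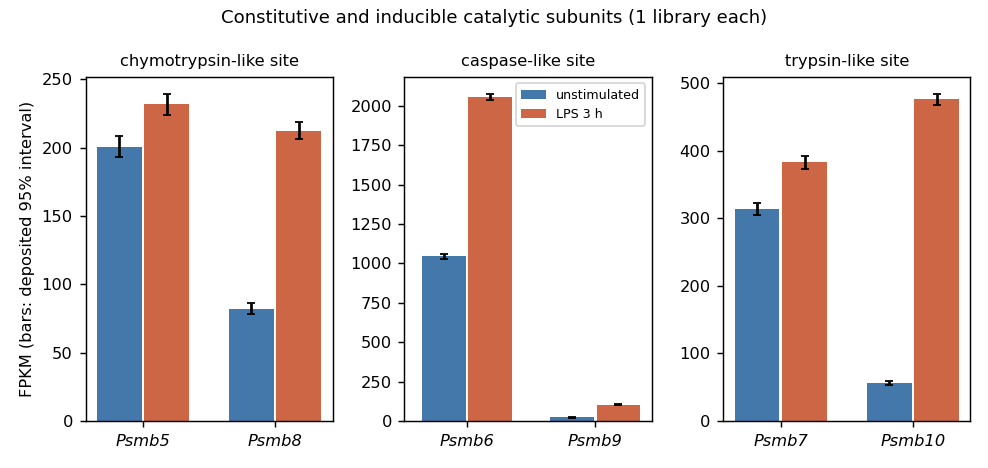
FPKM (vertical linear axes from 0, a different scale in each panel) of the 3 constitutive catalytic beta subunits and their inducible counterparts, unstimulated in blue and after 3 h of LPS in orange, 1 library each, with deposited 95% intervals as bars. Psmb10 passes Psmb7 and Psmb8 nearly reaches Psmb5, while Psmb9 at 104 stays far below Psmb6 at 2059.

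The 6 ATPases form the ring of the base that unfolds substrates, and Psmc6 stood apart from the other 5. Psmc4 (Rpt3) was at 62.1 (59.1 to 65.1) and 86.7 (83.2 to 90.2), Psmc2 (Rpt1) at 35.3 (33.3 to 37.3) and 46.3 (44.0 to 48.5), Psmc5 (Rpt6) at 103 and 131, and Psmc3 (Rpt5) at 126 and 150. All 4 had the LPS interval above, and Psmc1 (Rpt2), at 99.6 and 102, had overlapping intervals. Psmc6 (Rpt4; mm9 chromosome 14, 45949499 to 45968746) was at 128 (124 to 132) without and 75.3 (72.2 to 78.4) with LPS. Its ratio of 0.588 (0.558 to 0.620) and change of -0.76 were the lowest of the 31 structural subunits.

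With that, Psmc6 moved from the highest of the 6 ATPases in FPKM to the fifth. The median change of the ring was 0.29, and 0.34 without Psmc6. The ATPases were also the most even of the 4 main groups, with a coefficient of variation of FPKM between subunits of 39.7% without and 38.2% with LPS. That of the alpha ring was 61.5% and 56.9%. Psmc6 was called lower, at -1.004, only after rescaling to TPM.

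The 3 other base subunits all had the LPS interval above on the deposited FPKM, with 0 past the size rule. Psmd4, a ubiquitin receptor (Rpn10), was at 84.4 (80.5 to 88.2) and 116 (112 to 121). The large scaffold subunits were at 36.7 (35.2 to 38.2) and 46.3 (44.6 to 47.9) for Psmd1 (Rpn2) and at 42.6 (40.9 to 44.3) and 47.2 (45.5 to 48.9) for Psmd2 (Rpn1). The Htr2b gene lies inside the Psmd1 locus but was at 0.292 and 0.0928 FPKM.

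The lid, which holds the deubiquitinase of the particle, was the most uneven of the 4 main groups in level. Its coefficient of variation of FPKM was 148% without and 179% with LPS. When Psmd8 was left out, these were 56.2% and 62.8%, near the 61.5% and 56.9% of the alpha ring. Psmd8 (Rpn12; mm9 chromosome 7, 29959206 to 29965692), a subunit that joins the lid late in its assembly, was at 639 (630 to 649) without and 1225 (1212 to 1238) with LPS. Its ratio was 1.92 (1.88 to 1.95) and its change 0.94. The change was 1.01 after median scaling, past the size rule, but 0.69 after TPM and 0.62 after quantile normalisation. The FPKM of Psmd8 was 10.95 times the lid's median without and 14.9 times with LPS. Psmd11 (Rpn6; mm9 chromosome 11, 80242117 to 80285635), which contacts both the lid and the core, was at 63.9 (61.2 to 66.7) and 116 (112 to 119), a ratio of 1.81 (1.72 to 1.91). Psmd3 (Rpn3) was at 31.8 (30.04 to 33.5) and 48.2 (46.1 to 50.3), a ratio of 1.52 (1.42 to 1.63), and Psmd7 (Rpn8) at 129 (125 to 133) and 175 (171 to 180). These 4 lid genes had the LPS interval above.

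The catalytic subunit of the lid was not among them. Psmd14 (Rpn11), the deubiquitinase, was at 111 (108 to 115) and 116 (113 to 120), with overlapping intervals, as were those of Psmd12 (Rpn5; 38.8 and 38.5) and Psmd13 (Rpn9; 43.9 and 48.5). Psmd6 (Rpn7), at 52.8 (49.8 to 55.8) and 43.7 (41.1 to 46.4), was the lid subunit with the LPS interval below. The median change of the 8 was 0.29 (range -0.27 to 0.94), and 0.14 over the 7 without Psmd8.

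**Figure D3:**
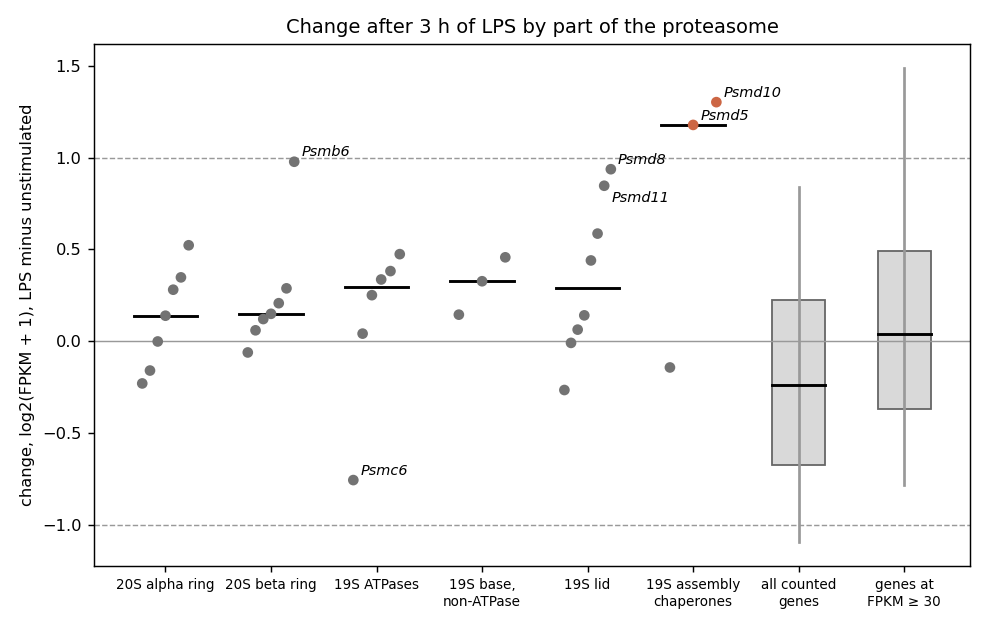
Change after LPS (vertical axis, log2(FPKM + 1) of LPS minus unstimulated) of each gene by part of the proteasome, with black lines at the medians, dashed lines at the size rule and genes past it in orange. Boxes at the right give the median, quartiles and 10th to 90th percentile of all counted genes and of genes at an FPKM of 30 or more; the medians of the 4 main groups lie between 0.14 and 0.29, and single genes spread more widely than the groups differ.

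Set side by side, the 4 groups differed less than their members. The median changes were 0.14 for the alpha ring, 0.15 for the beta ring, 0.29 for the ATPases and 0.29 for the lid, and each group spanned at least 0.75 between its lowest and highest member. Medians vary less than single genes by construction. Some spans also rested on 1 gene: the beta ring spanned 0.35 without Psmb6 and the ATPases 0.43 without Psmc6. The lid still spanned 1.11 without Psmd8. No test between groups was made, since subunits are not replicates. The core groups were below the 19S groups under all 9 alternative settings tried, but most of these could hardly reorder the groups. The filters and the choice of rows left the 4 medians unchanged, and TPM and median scaling rescale all genes alike. Without Psmd8 the lid median was 0.14, no higher than the 0.15 of the beta ring. The sign of the core medians was not stable. The alpha and beta medians were -0.11 and -0.10 after rescaling to TPM and both -0.13 after quantile normalisation. The ATPase and lid medians stayed above 0 under all 9 settings. The same settings moved the median of all counted genes from -0.24 to -0.48 and -0.13. Relative to it, the alpha and beta medians were 0.38 and 0.39 higher on the deposited FPKM. They were 0.37 and 0.38 higher after TPM, which rescales all genes alike, and level with it after quantile normalisation. With a pseudocount of 5 they were 0.28 and 0.29 higher, and without a filter 0.14 and 0.15 higher. The genes at the floor of 30 FPKM had a median of 0.04, nearer to the alpha and beta medians.

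Levels separated core and cap more clearly than changes did. FPKM is scaled to length, and on that basis levels were compared between genes. The uncertainty from pseudogenes given above for Psma5, Psmb5, Psmb6 and Psmb7, all core subunits, applies here too. The median core subunit was 4.01 times as high as the median 19S subunit without LPS (256 against 63.9 FPKM) and 3.18 times with LPS (275 against 86.7). Without LPS 12 of 14 core subunits and 6 of 17 subunits of the regulatory particle exceeded 100 FPKM. The 17 leave out 19S genes whose symbols fall outside the rule. Of these, the lid subunit Sem1 was at 1234 FPKM without and 935 with LPS, and Adrm1 (Rpn13) at 60.6 and 91.5. The medians, sums and shares here cover the 31 subunits within the rule only. The order of the 31 subunits by FPKM was much the same in both libraries (Spearman's rho 0.949 across genes, which are not independent replicates). Their sum was 6050 and 8146 FPKM, or 1.09% and 1.24% of the summed FPKM of all genes. Psmb6 and Psmd8 made up 76.3% of the difference, and without this pair the ratio of the sums was 1.11.

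The members past the size rule on the high side were assembly chaperones of the base. These bind single ATPases while the ring is built and leave before the particle is complete. Psmd5 (mm9 chromosome 2, 34707609 to 34726482), which binds Psmc2, rose from 33.8 FPKM (31.9 to 35.6) without to 77.7 (74.99 to 80.4) with LPS, at a ratio of 2.30 (2.16 to 2.45) and a change of 1.18. Its intervals were far apart, and it was short of the rule only after rescaling to TPM (0.95). Psmd10 (mm9 chromosome X, 137482964 to 137491250), which encodes gankyrin, a partner of Psmc4, rose from 25.02 to 63.2, a change of 1.303 that passed the rule under all 9 alternatives. Of these alternatives, the filter settings and rows of any status left its value unchanged.

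The value of Psmd10 is nevertheless the less certain one. It is the sum of 2 transcripts, and the deposited intervals of the main one were 19.6 to 23.4 without and 22.7 to 90.7 with LPS, with central values of 21.5 and 56.7. The other transcript was at 3.51 (1.76 to 5.25) and 6.53 (0 to 43.0). The intervals of both transcripts overlapped between the libraries. Psmd9, the third chaperone of this kind and a partner of Psmc3 and Psmc6, was at 8.07 (7.28 to 8.85) and 7.21 (6.48 to 7.93), the lowest level of the 34 proteasome genes counted, with overlapping intervals.

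The 250 bases before the starts of Psmd5 (RefSeq, GRCm38.p6, chr2:34870963-34871212, minus strand) and Psmd10 (chrX:140956712-140956961, minus strand) are shown because these were the 2 genes called higher. In Psmd5 capitals mark the same TGANNNNGC letters, here read on the opposite strand. In Psmd10, which has no such match, they mark CCAAT, the letters bound by NF-Y, once on the gene's strand and at 2 places on the opposite one (ATTGG). The last of these lies 24 bases before the start.
Psmd5: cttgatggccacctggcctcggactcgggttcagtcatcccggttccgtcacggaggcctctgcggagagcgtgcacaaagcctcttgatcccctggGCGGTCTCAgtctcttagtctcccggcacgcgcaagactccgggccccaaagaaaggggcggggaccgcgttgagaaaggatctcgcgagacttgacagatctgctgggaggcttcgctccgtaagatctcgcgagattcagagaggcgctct
Psmd10: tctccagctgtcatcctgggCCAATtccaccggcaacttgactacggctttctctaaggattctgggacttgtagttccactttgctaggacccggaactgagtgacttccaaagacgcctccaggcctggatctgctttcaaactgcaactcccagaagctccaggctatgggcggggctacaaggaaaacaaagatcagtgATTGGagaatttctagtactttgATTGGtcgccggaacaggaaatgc

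The shares of members with either motif lay within a few points of those of all genes. Of the 30 member genes with an entry in the promoter table, 13 (43.3%) held TGANNNNGC on either strand of these 250 bases, against 38.7% of all 27025 genes in the table. CCAAT was likewise held by 13 genes (43.3%, against 37.5%), and both motifs by 5, Psma6, Psmb3, Psmb11, Psmc2 and Psmc3ip. Among the members that held TGANNNNGC, Psmb6 and Psmd5 were at higher FPKM with LPS, and Psmc6 and Psmc3ip at lower FPKM. Psmd10 had an entry but no match. Any link between the motif and the change was not tested.

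The last 3 members are no part of the constitutive particle in these cells. Psmc3ip, which acts in meiotic recombination and DNA strand exchange, fell from 28.97 (26.3 to 31.7) to 7.85 (6.47 to 9.22), at a ratio of 0.271 (0.222 to 0.330). Its locus shares 51 bases with that of Mlx, which was at 24.6 and 26.0 FPKM. Psma8, the testis form of Psma7, was listed at 0 in both libraries, and Psmb11, the thymic catalytic subunit, was at 0.101 (0.0338 to 0.169) and 0.0536 (0.00566 to 0.102).

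Of 41 genes outside the rule that build, regulate or serve the proteasome, all counted, 7 were called higher and 2 lower, with a median change of 0.18, against 8.54% and 12.4% and a median of -0.24 over all counted genes. The inducible subunits made up 3 of the 7 and the PA28 genes 2. The chaperones that assemble the core, as opposed to the base, included 0 called genes but had the lowest median of the 8 lists, -0.49. Psmg2 was at 45.4 (42.3 to 48.5) and 23.7 (21.5 to 25.9), its dimer partner Psmg1 at 72.6 and 51.4, and Psmg3 at 51.0 and 31.7, all 3 with the LPS interval below, as in 48.4% of all counted genes. The maturation factor Pomp, the highest of this list, was at 342 and 353, and Psmg4 at 94.8 and 91.8, both with overlapping intervals.

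Of the regulators that dock on the core in place of the 19S particle, the PA28 subunits were called higher. Psme1 was at 93.0 (88.4 to 97.7) without and 284 (276 to 292) with LPS. Psme2, which pairs with it, was at 119 and 376, although its value is split over 2 transcripts with wide intervals in the unstimulated library. The nuclear PA28 form Psme3 was at 72.6 and 82.5, the large activator Psme4 at 4.50 and 3.21, and the inhibitor Psmf1 at 6.64 and 11.8, none past the rule.

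Among genes whose products attach to the 19S particle, 5 of 6 had the LPS interval below, against 48.4% of all counted genes, and their median change of -0.30 was close to the -0.24 of all counted genes. Uchl5, a deubiquitinase of the base, fell from 28.6 (26.8 to 30.4) to 13.8 (12.6 to 15.0), a change of -1.01 that no longer passed when the pseudocount was 5 or after median scaling. Sem1, the smallest lid subunit and outside the rule by its symbol, was the highest of this list at 1234 and 935. Adrm1 (Rpn13), the receptor that recruits Uchl5, was the exception, at 60.6 (57.6 to 63.6) and 91.5 (87.9 to 95.1).

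Genes that deliver substrates or control proteasome transcription had a few called members. Of the shuttle receptors, Ddi2, a protease that activates NRF1, fell from 12.9 to 5.60, and Rad23b was at 33.7 and 39.6. Of the 5 genes for p97 and its cofactors, which extract ubiquitinated proteins, 0 were called, and Nsfl1c was highest at 139 and 154. Among the controlling factors, Keap1, the inhibitor of NRF2, rose from 8.00 (7.27 to 8.74) to 20.03 (18.9 to 21.2). Nfe2l2, which encodes NRF2, was just short of the rule at 93.9 and 187 (a change of 0.99), and Nfe2l1, which encodes NRF1, was at 10.1 and 16.8. The calls of Keap1 and Ddi2 were lost with a pseudocount of 5, and that of Ddi2 also after quantile normalisation. Nfe2l2 came to pass the rule after median scaling (1.06), but was at 0.74 both after TPM and after quantile normalisation.

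**Figure D4:**
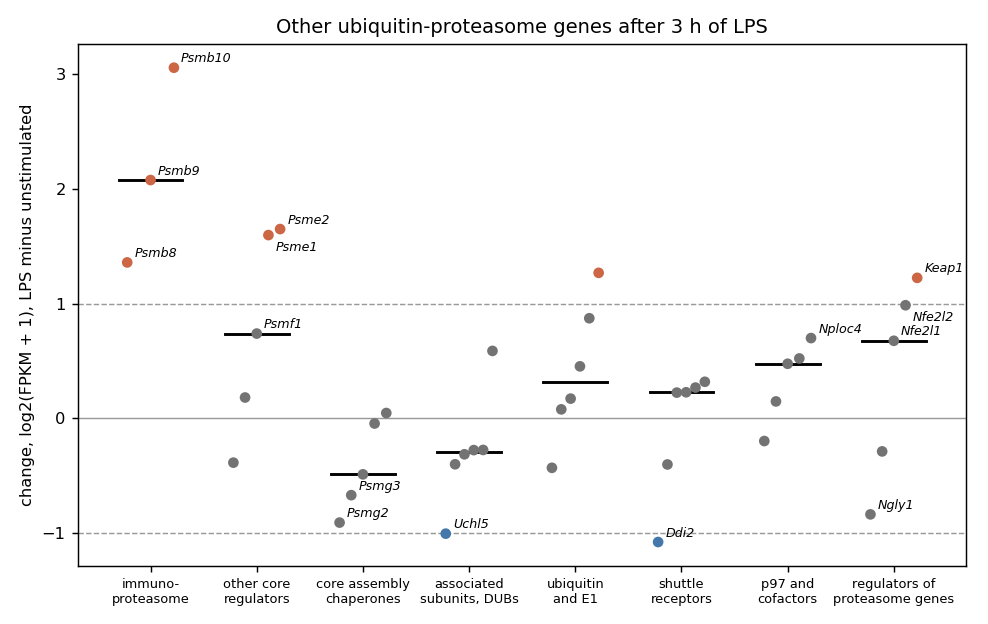
Change after LPS (vertical axis, log2(FPKM + 1) of LPS minus unstimulated) of 41 other ubiquitin-proteasome genes in 8 lists, with black lines at the list medians, dashed lines at the size rule, and genes past it in orange (higher) or blue (lower). The inducible subunits and the PA28 genes Psme1 and Psme2 lie highest, and the core assembly chaperones Psmg1, Psmg2 and Psmg3 lie below 0.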

How the data were processed

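The authors deposited 1 table per RNA library, with FPKM and its lower and upper bound for each of 28246 RefSeq transcript rows. FPKM was estimated with Cufflinks on mm9, per the submitters' processing notes. The version, the aligner and the strand setting of the counting are not given there. The libraries were strand-specific, from total RNA, with 76-base reads, per the labels' protocols. The 21 chromatin samples were not analysed here.

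Symbols came from a RefSeq table of GRCm38.p6, used for names only (27556 rows matched). Rows not of status OK in both libraries (391) and rows of small RNAs (702) were left out, and FPKM was summed per symbol, with interval half-widths in quadrature. The change was log2(FPKM + 1), counted genes reached 1 FPKM without or with LPS, and the size rule was 1. Ratios are of FPKM without pseudocount, with intervals from the relative half-widths of both values in quadrature on the natural log scale. Fragments are the square of 2 × FPKM over the half-width. Every matched member is named; of the other lists, Psmb8 to Psmb10, genes past the rule and the highest gene are named, and some further genes were added after their values were seen. Some items that this rule would name are not reported here. Members and lists were chosen with earlier results of these data known. The steps were tested on simulated data (Python 3.11.15, pandas 2.3.3). Alternatives are in the closing section. The planned comparison of protein sequences was not made.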

Additional observations from a re-analysis of the deposited data

How the results depend on the processing

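The alternatives were pseudocounts of 0.1 and 5, no filter and a filter at an FPKM of 5, TPM, median scaling, quantile normalisation, rows of any status, and the highest row of each gene. Of 405 values for single genes under these alternatives, 395 kept their side of the size rule, 6 fell short of it and 4 came to pass it. Many of the 395 could not move. The filter settings and rows of any status gave these genes their main values again, and the highest row changed only Psmd10, Psme2 and Keap1. No called value reversed, but 21 values of 14 uncalled members took the other sign (9 after TPM, 9 after quantile normalisation, 3 after median scaling). After TPM 1 member was called higher (Psmd10) and 2 lower (Psmc3ip and, at -1.004, Psmc6, so 1 structural subunit). TPM moved the medians to -0.11 (alpha ring), -0.10 (beta ring), 0.0505 (ATPases), 0.0485 (lid) and -0.0371 (31 subunits). After median scaling 4 members were called higher, 2 of them structural (Psmb6 at 1.06 and Psmd8 at 1.01), and the medians were 0.22, 0.23, 0.37 and 0.37, with 0.28 for the 31. Quantile normalisation gave -0.13, -0.13, 0.0358 and 0.10, with 0.0286 for the 31. Over all genes, those called lower were 1249, and 2062 or 354 with a pseudocount of 0.1 or 5 and 2281 after TPM, and the median of all genes was -0.48 after TPM and 0 without a filter. The cause of these shifts was not tested. With 1 library per condition, culture-to-culture spread is unknown, and intervals cover single libraries only.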

Other observations

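The member genes were scattered over 16 chromosomes of mm9. Chromosome 11 held 7 of the 37, against 8.63% of all counted genes: Psmb3, Psmb6, Psmc3ip, Psmc5, Psmd3, Psmd11 and Psmd12. Of the 4 structural subunits with the largest changes in size, Psmb6 (0.98) and Psmd11 (0.85) lay there and Psmd8 (0.94) and Psmc6 (-0.76) did not, and Psmb3 and Psmd12 on the same chromosome were at -0.06 and -0.01. The 250 bases before the start had a median GC content of 56.2% and a median of 15.5 CpG over the 32 promoters of members in the table, against 52.4% and 6 over all promoters. No test was made of these differences.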
